A study of Mus musculus with 17 samples.

Results

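Day 7 embryoid bodies of 2 mouse embryonic stem cell (ESC) lines, D3 and B8, were compared for their mature microRNAs (miRNAs). The comparison uses 5 of 17 labelled samples of the series (14 of them with values analysed here): replicates 2 and 3 of D3 and replicates 1 to 3 of B8. Undifferentiated cells of both lines were grown without feeder cells in the presence of LIF. For differentiation, both lines were taken off LIF, formed embryoid bodies in hanging drops and received the same medium with retinoic acid, insulin, transferrin, selenium and N2 supplement. No genetic change or further agent separates the groups in the labels. Whether replicates of a line are separate cultures is not stated in the labels, and if they are not, p-values capture technical spread only. Of 1033 mature miRNAs in the table, 521 passed a filter on low values and were tested, and 512 were not. Of all 1033, 184 had no read in any of the 5 libraries. The libraries held whole embryoid bodies, in which fewer cells of a type and less RNA per cell cannot be told apart.

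A miRNA is cut from a hairpin that yields a 5p and a 3p strand, and the loaded strand guides Argonaute proteins to messenger RNAs that pair with its seed near the 5′ end. miRNAs with the same seed share many targets, and many miRNAs are made from clusters transcribed together. In mouse ESCs the miR-290 cluster is the dominant such cluster and is known for promoting rapid cell cycles and self-renewal, while the miR-302 cluster carries a related seed and is known from the later epiblast. miR-10a and miR-10b lie among the Hox genes, which pattern the body axis.

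The sequences below carry the contrasts described next, grouped by shared seed (bases 2 to 8, in capitals). They are RefSeq mature sequences for build GRCm38.p6, in which 429 of the 521 tested miRNAs were matched by name. The first set shows that members of the miR-290 cluster and of the miR-302 cluster, of which strands were called in opposite directions between the lines, hold the same seed.
miR-291a-3p: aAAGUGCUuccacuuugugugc
miR-294-3p: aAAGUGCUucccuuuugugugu
miR-295-3p: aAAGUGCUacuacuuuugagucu
miR-302b-3p: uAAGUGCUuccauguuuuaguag
miR-302d-3p: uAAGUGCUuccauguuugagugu
The 5p strands of the miR-290 cluster include a second seed group that was lower in D3 throughout.
miR-290a-5p: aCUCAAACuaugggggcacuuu
miR-292a-5p: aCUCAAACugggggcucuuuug
miR-293-5p: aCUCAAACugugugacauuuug
The miRNAs that took the most signal in both lines share 1 seed and differ at a single base, U12A (the base of miR-10a-5p first, then its position from the 5′ end, then the base of miR-10b-5p).
miR-10a-5p: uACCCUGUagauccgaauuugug
miR-10b-5p: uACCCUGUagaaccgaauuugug
The last set belongs to miRNAs with large differences in either direction.
miR-126a-3p: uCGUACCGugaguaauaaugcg
miR-142a-5p: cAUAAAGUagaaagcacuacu
miR-136-5p: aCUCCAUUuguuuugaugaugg
miR-196b-5p: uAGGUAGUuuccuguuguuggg

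The scale decided how many miRNAs counted as higher in D3. The deposited values summed to 776063 ± 76850 (SD, n = 2) in D3 and to 174245 ± 27060 (SD, n = 3) in B8, a 4.45-fold gap, while recovered miRNA reads ran from 141823 to 256613 in B8 and from 1008438 to 1060306 in D3. As deposited, 392 of 521 miRNAs (75.2%) passed the threshold of an adjusted p under 0.05 (limma's moderated test, Benjamini-Hochberg adjustment). Of these, 344 were higher in D3 (66%) and 48 lower (9.21%), and the median log2 difference, D3 minus B8, was 1.71. The second scale divided each of the 5 libraries by a median-of-ratios factor over the 411 miRNAs above 0 in all 5. The factors were 0.568 to 0.677 for B8 and 1.97 to 2.04 for D3. On this rescaled signal 202 miRNAs (38.8%) passed, 105 higher in D3 (20.2%) and 97 lower (18.6%), with a median log2 difference of 0.22. All 105 were also called higher as deposited (20.2% of those tested), 48 were lower on both scales (9.21%), and 12 were called in opposite directions. At day 7 the scales differ only by these factors, which set D3 higher as deposited. The shared higher calls are therefore no separate support.

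**Figure D1:**
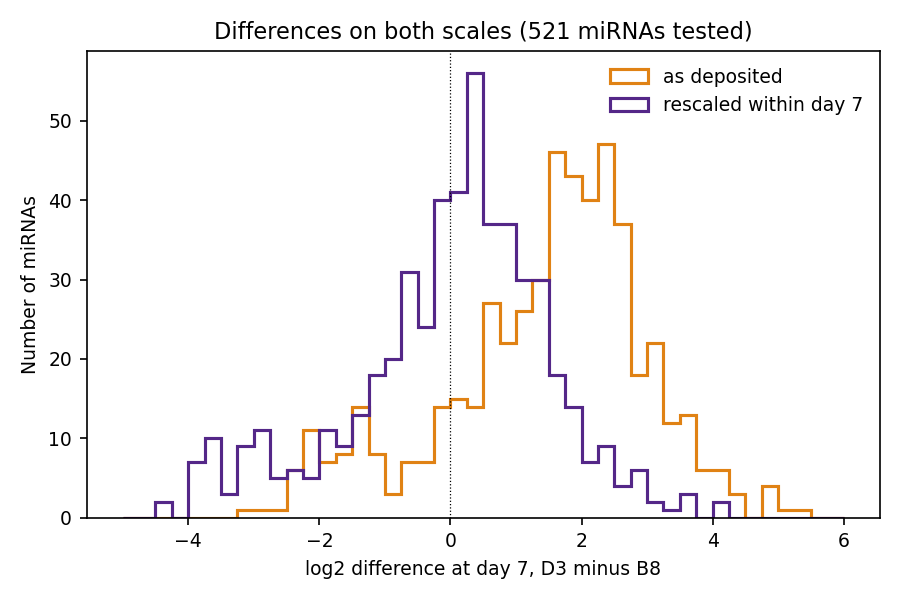
Histogram of log2 differences (D3 minus B8 at day 7; bins on the x axis, number of miRNAs on the y axis) for the 521 tested miRNAs, as deposited and after rescaling. The deposited differences centre at 1.71 and the rescaled ones at 0.22, with a separate shoulder of lower miRNAs near -3 on the rescaled scale.

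Fold changes below are on the rescaled signal, tested on log2(signal + 0.48), which understates changes of low miRNAs, and an adjusted p is from limma's moderated test over all 521. The libraries of the lines did not overlap for 282 miRNAs (54.1%), with D3 above B8 for 152 (29.2%) and below it for 130 (25%). Across miRNAs, Spearman's rho of the rescaled signal was 0.922 to 0.943 within B8, 0.977 within D3 and 0.821 to 0.855 between the lines. Leaving out D3 replicate 2 reduced the 202 calls to 126, with 56 higher and 70 lower. Scaling every library to the same column total gave 161 calls, 40 higher and 121 lower, so that 24.8% of calls were higher against 52% with the main factors, and DESeq2 on the recovered reads gave 41.2% higher among 148 calls. Both of these alternatives lowered most medians of the miRNA groups described below, a shift that favours lower calls over higher ones. Under them the named miRNAs lower in D3 in the miR-290, Sfmbt2 and miR-183 clusters kept their calls. Several modest gains in D3 did not, as stated beside them. Equal totals outside miR-10a and miR-10b raised the medians of these clusters, and their lower calls then numbered 13 of 13, 33 of 42 and 3 of 6 tested. Fitted on the 5 day 7 libraries alone, with 3 residual degrees of freedom, 28 named miRNAs lost their rescaled call. Among them were miR-136-5p, miR-369-3p, miR-302b-3p, miR-218-5p, miR-7a-5p, miR-191-5p and miR-335-5p, all described below. In that fit the adjusted p of those listed ran from 0.052 for miR-191-5p to 0.073 for miR-302b-3p and miR-335-5p. Over all alternatives, the lowest adjusted p of any miRNA just listed was 7.3e-07 and the highest 0.36.

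miR-10a-5p and miR-10b-5p made up most of the miRNA signal in D3 and less of it in B8. Together they took 41.9%, 42.59% and 46.97% of the signal in the 3 B8 libraries and 67.05% and 63.3% in the 2 D3 libraries. Every D3 library was above every B8 library, and the means differed by 21.4 percentage points. With 3 against 2 libraries, no exact permutation test can go below p = 0.1, so the share is given without a test. In undifferentiated cells of the same lines the pair took 0.628% ± 0.044 (SD, n = 3) in B8 and 0.113% ± 0.041 (SD, n = 3) in D3.

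**Figure D2:**
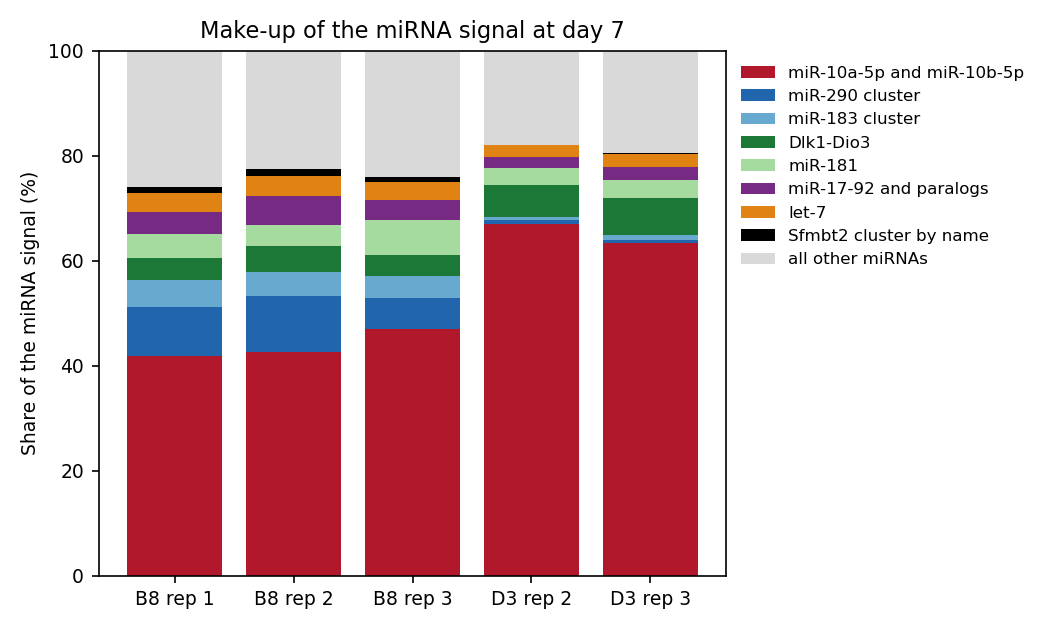
Stacked bars of the share of the miRNA signal (%) in each day 7 library, by miRNA group. The miR-10a-5p and miR-10b-5p segment reaches 63.3% to 67.05% in D3 against 41.9% to 46.97% in B8, while the miR-290 and miR-183 cluster segments shrink to under 1% each in D3.

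Both miR-10 members were higher in D3 in rescaled signal. miR-10a-5p, encoded beside Hoxb4 (chr11:96317186-96317208, plus strand), stood at 68940, 65560 and 75570 in B8 and at 173700 and 147400 in D3. The groups did not overlap, and the log2 difference was 1.20 ± 0.23 (SE, adjusted p = 0.00037). miR-10b-5p, in an intron shared by Hoxd3 and Hoxd4 (chr2:74726074-74726096, plus strand), stood at 45210, 42110 and 65620 in B8 and at 99920 and 84150 in D3. B8 replicate 3 was the highest of its group but remained below D3, and the log2 difference was 0.88 ± 0.22 (SE, adjusted p = 0.0037). Its call was lost without D3 replicate 2 (adjusted p = 0.059) and with equal column totals (adjusted p = 0.21), the range over 18 alternatives being 0.00054 to 0.21. The ratio of miR-10a-5p to miR-10b-5p was 1.52, 1.56 and 1.15 in B8 and 1.74 and 1.75 in D3.

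The miR-196 members, which lie further toward the posterior end of Hox clusters and are known to repress Hox messenger RNAs, went the other way. They were chosen for mention after their values were seen. miR-196b-5p had 58, 70 and 41 recovered reads in B8 and 14 and 27 in D3, although the D3 libraries were several times deeper. In rescaled signal this was 67.1, 69.0 and 86.9 in B8 against 5.39 and 9.79 in D3. It was lower in D3 by a log2 difference of -3.26 ± 0.39 (SE, adjusted p = 3.1e-06), and miR-196a-5p by -2.70 ± 0.38 (adjusted p = 1.8e-05). Of all tested miRNAs, 20.2% were higher and 18.6% lower, with a median of 0.22. Among 8 tested Hox-embedded miRNAs (miR-10, miR-196 and miR-615 of 10 in the table), 4 were higher and 2 lower, with a median of 0.84. The 4 higher became 1 without D3 replicate 2 or with equal column totals, while both lower calls remained in each leave-one-out fit.

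The miR-290 cluster (6 precursors at chr7:3218626-3220841, GRCm38.p6) was lower in D3 embryoid bodies for every tested member. All 13 tested strands were called lower, of 14 in the table, against 18.6% of all tested miRNAs, with log2 differences from -3.87 to -1.91 and a median of -3.06. As deposited, 11 of 13 were lower despite the upward shift of D3, against 9.21% of all tested. miR-292a-5p, the most abundant strand of the cluster here, had 10800, 10970 and 9053 in B8 and 771.6 and 704.8 in D3. These groups lay far apart, 13.9-fold on the means, with a log2 difference of -3.79 ± 0.18 (SE, adjusted p = 4.6e-11). Its partner strand miR-292a-3p had 2327, 3786 and 2022 in B8 and 209.7 and 204.6 in D3, a log2 difference of -3.65 ± 0.23 (adjusted p = 1.2e-09). miR-295-3p differed less. Its signal was 6937, 5658 and 2270 in B8 and 1195 and 960.9 in D3, with B8 replicate 3 the lowest of its group but still above D3, and the log2 difference was -2.06 ± 0.32 (adjusted p = 5.3e-05).

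Per library, the whole miR-290 cluster took 9.21%, 10.6% and 5.96% of the signal in B8 and 0.677% and 0.660% in D3. Counted outside miR-10a and miR-10b, which filled more of D3, the mean share was 15.2% ± 3.69 (SD, n = 3) in B8 and 1.93% ± 0.18 (SD, n = 2) in D3. In undifferentiated cells the corresponding shares were 27.6% ± 1.61 for B8 and 22.1% ± 2.60 for D3 (SD over 3 libraries of each line). The lines thus stood closer together before differentiation than at day 7; the change over time was not tested here. Between 12 and 13 of the 13 strands stayed called when any single library was left out, and 11 with the day 7 libraries fitted alone.

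The miR-302 cluster (5 precursors at chr3:127545228-127545807, opposite in strand to Larp7 and within one of its introns) was low in both lines at day 7, and none of its strands was called lower in D3. Of 7 tested strands, 3 were higher in D3, against 20.2% of all tested, with a median of 0.66 beside 0.22 for all tested. The count was 1 with equal column totals or with DESeq2, and 0 with the day 7 libraries fitted alone. miR-302b-3p had 8, 4 and 1 recovered reads in B8 and 50 and 58 in D3. Its rescaled signal was 9.26, 3.94 and 2.12 against 19.2 and 21.0, a log2 difference of 2.10 ± 0.41 (SE, adjusted p = 0.00058). miR-302d-3p, with 35.9, 30.5 and 21.2 in B8 and 42.7 and 48.2 in D3, differed by 0.66 ± 0.23 (adjusted p = 0.027). That call was lost in 3 of 5 leave-one-out fits, with B8 replicate 3 out (adjusted p = 0.1), D3 replicate 2 out (0.063) or D3 replicate 3 out (0.13), within a range of 0.0046 to 0.66 over all alternatives. Without D3 replicate 3 the list kept 1 of its 3 calls.

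Because both clusters carry the AAGUGCU seed shown above, their signals can be summed by seed. The 5 tested miRNAs matched to this seed summed to 7501, 6877 and 2647 in B8 and to 1314 and 1081 in D3. The sum was lower in both D3 libraries than in any B8 library even though the 2 miR-302 strands in it were called higher. It holds only miRNAs matched by name to a sequence, and miR-302a-3p, another strand called higher, is not in it. The CUCAAAC seed of the 5p strands summed to 11380, 11700 and 9288 in B8 against 895.9 and 805.7 in D3. The AAAGUGC seed, offset by a base and carried by 6 tested miRNAs of the miR-17-92 family, summed to 3559, 5777 and 3196 in B8 and 3013 and 3064 in D3. Both D3 sums were again below every B8 sum, but close to the lowest.

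The miR-17-92 cluster and its paralogs, known for promoting proliferation, had few strands higher in D3 once rescaled. Of 25 tested strands, 1 was higher and 6 lower (18.6% of all tested were lower), with a median of 0.03. As deposited, 18 were higher and none lower, where 66% of all tested were higher and 9.21% lower. Between the scales, 5 strands were called in opposite directions. miR-25-3p had 4628, 4784 and 4778 in B8 and 2882 and 3211 in D3, a log2 difference of -0.64 ± 0.14 (SE, adjusted p = 0.0017). On the deposited scale the same miRNA was higher in D3 by 1.03 (adjusted p = 0.00084). miR-93-5p (-0.67 ± 0.18 rescaled) and miR-92a-3p (-0.70 ± 0.19) were likewise called higher as deposited (adjusted p = 0.0011 for both). Their rescaled calls were lost without D3 replicate 2 (adjusted p = 0.063 and 0.12; ranges over the alternatives 0.0005 to 0.16 and 0.0003 to 0.14), and without that library the list had 1 lower call instead of 6. Without B8 replicate 2, 6 strands were called higher instead of 1. The lower calls numbered 1 with edgeR or with the day 7 libraries alone, and 2 with equal totals outside miR-10a and miR-10b. No direction on an absolute scale can be given for these miRNAs.

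The Sfmbt2 cluster was the other large group that was lower in D3. It is a tandem array of miR-297, miR-466, miR-467 and miR-669 hairpins in an intron of Sfmbt2, an imprinted gene expressed from the paternal copy and known for its role in the placenta. GENCODE places 71 such precursors inside Sfmbt2 (chr2:10466663-10518279, GRCm38) and 10 elsewhere. Of 42 tested strands with these names (64 in the table), 33 were lower in D3 and none higher, against 18.6% of all tested lower, with a median of -2.98. As deposited, 28 were lower, against 9.21% of all tested. Reads that match several copies may have been split or counted more than once, so the members are uncertain one by one and the list counts near-copies as separate members.

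miR-669a-5p had 604, 627.5 and 529.9 in B8 and 48.87 and 37.73 in D3, 13.6-fold lower on the means (log2 difference -3.76 ± 0.20 SE, adjusted p = 8e-11). miR-467c-5p had 278.9, 293.6 and 290.4 in B8 and 17.3 and 21.4 in D3 (log2 difference -3.87 ± 0.19, adjusted p = 4.6e-11). Both were tightly grouped within each line and far apart between them. miR-467a-5p, miR-669a-3p, miR-669p-5p and miR-669c-5p had log2 differences from -3.95 to -3.25. The summed list took 1.13%, 1.31% and 0.917% of the signal in B8 and 0.0623% and 0.0700% in D3. In undifferentiated cells its mean share was 1.20% ± 0.14 for B8 and 1.60% ± 0.10 for D3 (SD over 3 libraries of each line), a day 0 gap that was not tested here and had the opposite sign. The count of lower calls was 31 to 37 when any 1 library was left out.

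Together the miR-290 and Sfmbt2 lists supplied 46 of the 97 miRNAs lower on the rescaled scale and 39 of the 48 lower as deposited, while making up 55 of the 521 tested.

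**Figure D3:**
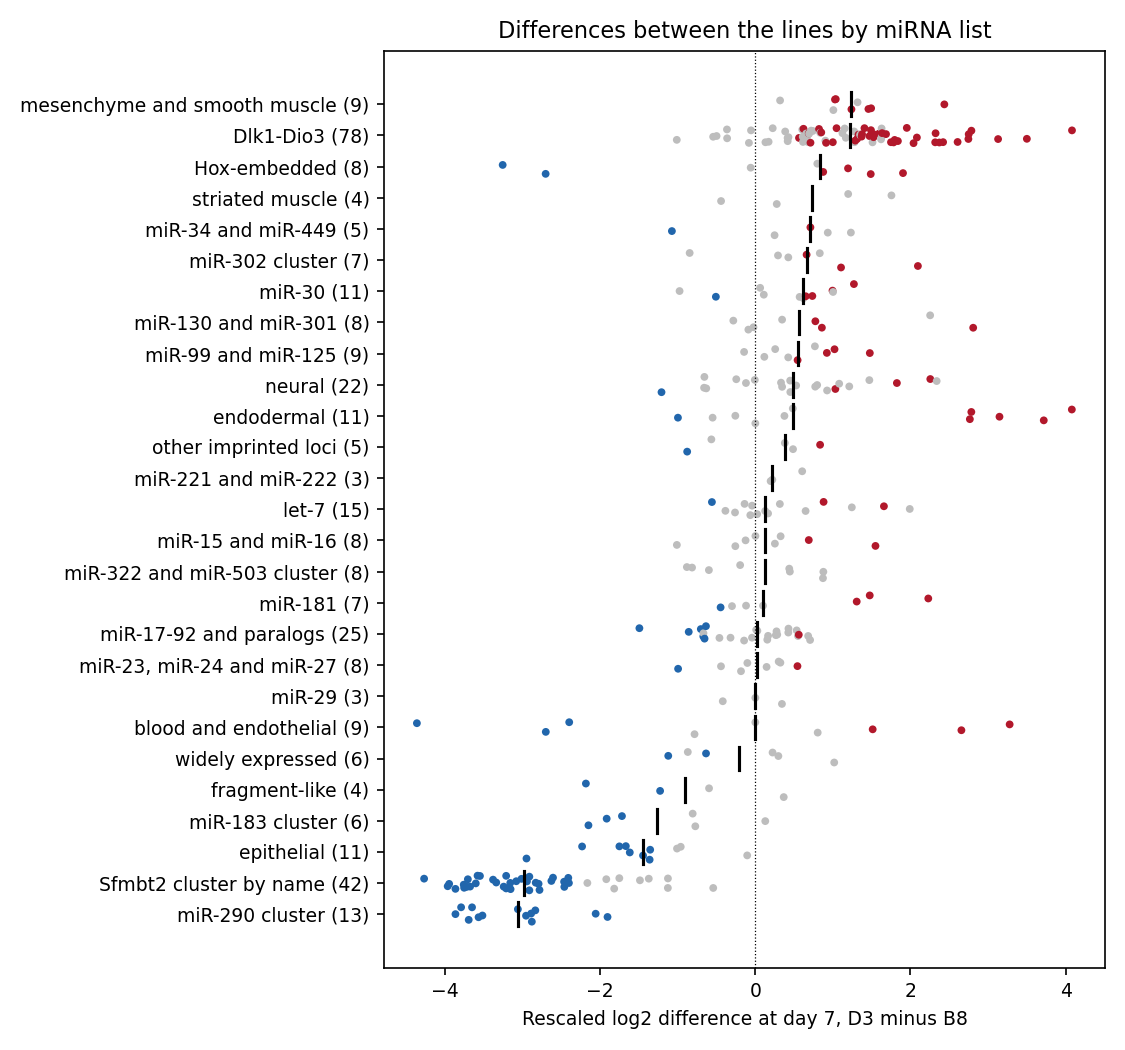
Rescaled log2 differences (D3 minus B8, x axis) of the tested members of 27 miRNA lists (y axis, number tested in brackets); each point is a mature miRNA, red if called higher in D3, blue if called lower, grey if not called, and the black bar is the list's median. The miR-290 and Sfmbt2 lists lie near -3, and the mesenchyme and Dlk1-Dio3 lists have medians of 1.24 and 1.22.

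The Dlk1-Dio3 region supplied the largest group of miRNAs higher in D3. This imprinted region on chromosome 12 expresses its miRNAs from the maternal copy, and loss of their expression is known from some induced pluripotent lines. Its 51 matched precursors span chr12:109563692-109747960. Of 78 tested strands (102 in the table), 40 were higher in D3 and none lower, against 20.2% of all tested, with a median of 1.22 beside 0.22. As deposited, 72 of 78 were higher, against 66% of all tested. The list's count was 27 without D3 replicate 3, 30 without D3 replicate 2, 24 with equal column totals (and 1 lower) and 23 with the day 7 libraries fitted alone.

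miR-127-3p, antisense to the paternally expressed Rtl1 and able to cleave its messenger RNA, had 4994, 5015 and 5799 in B8 and 10610 and 11110 in D3. It was 2.06-fold higher, a log2 difference of 1.05 ± 0.14 (SE, adjusted p = 7.6e-06), with no overlap. miR-410-3p, near the far end of the region, had 1029, 1219 and 949.6 in B8 and 2628 and 2703 in D3 (1.33 ± 0.15, adjusted p = 2.1e-06). Both calls held in all 18 alternatives. miR-541-5p had 1905, 1878 and 1708 in B8 and 2753 and 3156 in D3 (0.69 ± 0.15, adjusted p = 0.0012), and with equal column totals it was not called (adjusted p = 0.45; range over the alternatives 9e-05 to 0.45).

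The most different member was miR-136-5p, another Rtl1 antisense miRNA, whose sequence is shown above. It had 2, 6 and 0 recovered reads in B8 and 91 and 92 in D3, a log2 difference of 4.08 ± 0.65 (SE, adjusted p = 6.7e-05). With so few B8 reads its size is not fixed: it was 3.03 without B8 replicate 3, 5.0 without B8 replicate 2, and 3.01 or 5.29 with a larger or smaller pseudocount. Its 3p strand had 12, 15 and 2 reads in B8 and 185 and 177 in D3 (2.75 ± 0.37, adjusted p = 1.2e-05), so both strands were higher. Of the 10 tested strands antisense to Rtl1, 9 were higher, and of the other 68 in the region 31 were. miR-433-3p was the exception among the antisense strands, at -0.08 ± 0.27. miR-369-3p had 17, 23 and 2 reads in B8 and 208 and 214 in D3 (2.61 ± 0.49, adjusted p = 0.00034), and the difference was 1.85 without B8 replicate 3.

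By share outside miR-10a and miR-10b, the region's miRNAs took 7.87% ± 0.64 (SD, n = 3) in B8 and 18.9% ± 0.95 (SD, n = 2) in D3 at day 7. At day 0 the shares were 14.3% ± 0.72 and 28.7% ± 1.01 (SD, n = 3 each). D3 was above B8 at both times.

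**Figure D4:**
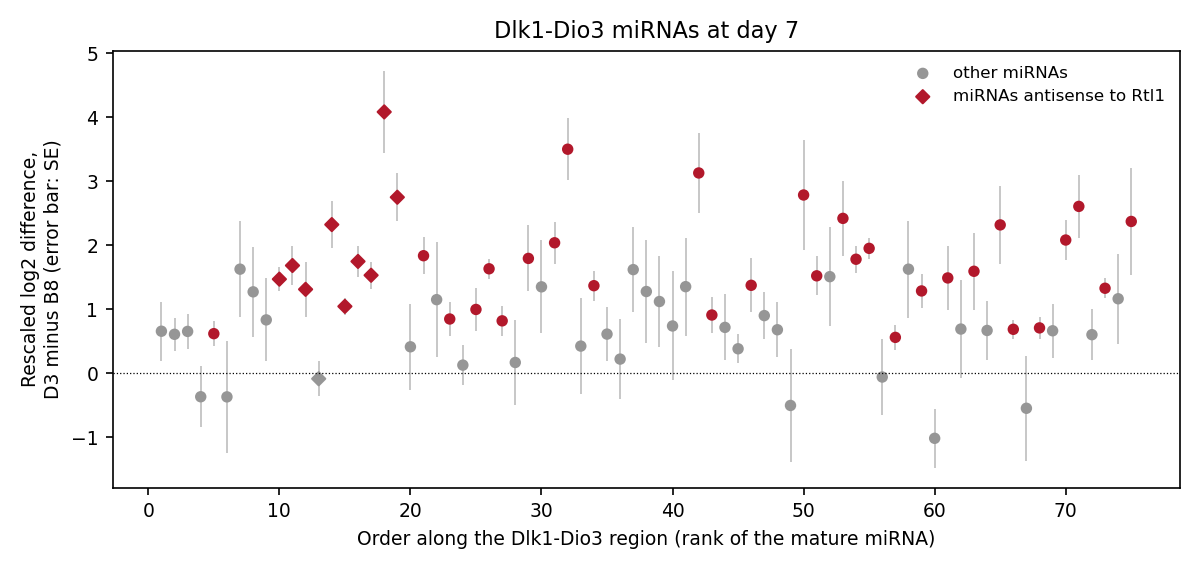
Rescaled log2 difference (D3 minus B8, y axis, error bars SE) of 75 tested Dlk1-Dio3 miRNAs with a known position, by rank along the region (x axis); diamonds are strands antisense to Rtl1, red marks calls. Higher strands occur along the whole region, and miR-136-5p at 4.08 is the highest point.

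The miR-183 cluster (3 precursors at chr6:30165918-30169737), known from sensory cells and abundant in ESCs, was lower in D3 on the rescaled scale but not as deposited. Of 6 tested strands, 3 were lower, against 18.6% of all tested, and none higher (median -1.26). None was called as deposited, where 66% of all tested were higher and 9.21% lower. miR-182-5p had 13210, 11340 and 11940 in B8 and 2461 and 3031 in D3, a log2 difference of -2.15 ± 0.15 (SE, adjusted p = 3.2e-09). On the deposited scale its difference was -0.48 (adjusted p = 0.12). miR-183-5p, at 732.4, 540.8 and 595.6 in B8 and 172.8 and 202.8 in D3, differed by -1.72 ± 0.17 (adjusted p = 2.6e-07). Neither set of libraries overlapped, and both calls held in all 18 rescaled alternatives. The cluster's share of the signal was 4.18% to 5.13% in B8 and 0.649% to 0.887% in D3.

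Markers of cell types that embryoid bodies can hold differed in both directions. Lists of such markers also held signal in undifferentiated cells, as given below, and the presence of any cell type was not tested. miR-126a, from an intron of Egfl7 and a defining miRNA of endothelial cells, was higher in D3. miR-126a-5p had 84.5, 81.8 and 40.3 in B8 and 655.3 and 621.0 in D3, a 9.27-fold gap (3.28 ± 0.29 SE, adjusted p = 5.1e-08). miR-126a-3p had 26.6, 26.6 and 25.4 in B8 and 143.5 and 196.2 in D3 (2.66 ± 0.27, adjusted p = 3.2e-07). Both strands separated the lines completely. miR-142a-5p, a defining miRNA of blood cells, went the other way: 24, 42 and 13 reads in B8 against 4 and 2 in the deeper D3 libraries. Its rescaled signal was 27.8, 41.4 and 27.6 in B8 and 1.54 and 0.726 in D3, a log2 difference of -4.36 ± 0.30 (adjusted p = 2e-09; -3.28 with the larger pseudocount). In the blood and endothelial list of 9 tested miRNAs (17 in the table), 3 were higher and 3 lower. The shares of all tested were 20.2% and 18.6%. The list's summed rescaled signal was 170 to 215 in B8 and 900 to 934 in D3, and most of the D3 sum was miR-126a. In each library 8 to 10 of its 17 members were at 0. Outside miR-10a and miR-10b the list's mean share was 0.129% in B8 and 0.685% in D3. In undifferentiated cells it was 0.398% in B8 and 0.188% in D3.

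Epithelial miRNAs were lower in D3 once rescaled. Of 11 tested (13 in the table), 8 were lower and none higher, against 18.6% of all tested lower, with a median of -1.45 (5 lower with the day 7 libraries alone). As deposited, 1 was lower and 1 higher, against 9.21% and 66% of all tested, and the median was 0.02. miR-205-5p, a marker of surface epithelium, had 650.3, 708.3 and 504.5 in B8 and 199.0 and 254.7 in D3 (-1.45 ± 0.20 SE, adjusted p = 1.8e-05). miR-429-3p, a member of the miR-200 family that holds cells epithelial by repressing Zeb factors, had 303.2, 321.2 and 279.8 in B8 and 78.1 and 101.2 in D3 (-1.75 ± 0.19, adjusted p = 7e-07). Its relative miR-141-3p differed by -1.62 ± 0.29 (adjusted p = 0.0002). All 3 kept their calls in all 18 alternatives, and the AAUACUG seed of the family summed to 322 to 385 in B8 against 87.4 and 108.5 in D3. The epithelial list summed to 962 to 1294 in B8 and to 356 and 439 in D3, with 1 to 4 members at 0 in a library. Its mean share outside miR-10a and miR-10b was 0.745% in B8 and 0.297% in D3. Undifferentiated B8 cells held 0.785% and undifferentiated D3 cells 0.432%, so D3 was below B8 at both times.

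Of 9 tested mesenchymal and smooth muscle miRNAs, 6 were higher in D3 (20.2% of all tested were) and none lower, with a median of 1.24. With equal column totals 1 was higher and the median was 0.75. miR-143-3p, typical of smooth muscle, had 481.4, 668.9 and 413.3 in B8 and 1318 and 1494 in D3 (1.46 ± 0.20 SE, adjusted p = 1.3e-05). miR-199a-3p and miR-199b-3p, whose values were nearly equal in every library and which are uncertain one by one, had 381.5 to 1343 in B8 and 1197 to 1550 in D3, with the lines overlapping for both. B8 replicate 2 held the most of both within B8. Their calls (adjusted p = 0.033 and 0.03) were lost in 4 of 5 leave-one-out fits, the highest value being 0.16 without D3 replicate 3, and over 18 alternatives the adjusted p ran from 0.00035 to 0.41. They also failed without B8 replicate 1 (0.08 and 0.067), B8 replicate 3 (0.15 for both) and D3 replicate 2 (0.071 and 0.063). The list's 6 calls became 3 without D3 replicate 3. Its summed signal was 1426 to 3687 in B8 and 4146 to 5041 in D3. Outside miR-10a and miR-10b its mean share was 1.53% in B8 and 3.43% in D3. In undifferentiated cells the gap had the opposite sign, with 1.75% in B8 and 0.214% in D3.

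Among endodermal miRNAs, strands of miR-216 and miR-217, which mark the exocrine pancreas in the adult, were detected mainly in D3. Of 11 tested, 5 were higher and 1 lower (median 0.48). The shares of all tested were 20.2% and 18.6%, with a median of 0.22. The higher calls numbered 3 with DESeq2 and 6 with edgeR. Under a stricter filter on low values only 3 of the list were tested, of which none was higher and 1 was lower. miR-217-5p had 0, 2 and 0 reads in B8 and 25 and 31 in the deeper D3 libraries, and miR-216b-5p had 5, 2 and 1 reads in B8 and 64 and 58 in D3 (adjusted p = 0.00027 and 0.00047). With so few B8 reads no fold is given. miR-375-3p, a miRNA of endocrine cells, had 120.3, 90.6 and 137.8 in B8 and 50.8 and 64.2 in D3 (2.02-fold lower on the means, adjusted p = 0.0071); the call was lost without D3 replicate 2 (adjusted p = 0.11; range 0.00092 to 0.11). As deposited, miR-375-3p was instead called higher in D3. The rescaled endodermal sum was 176 to 225 in B8 and 209 to 227 in D3, so the list as a whole overlapped. Its mean share outside miR-10a and miR-10b was 0.131% in B8 and 0.163% in D3, against 0.0734% and 0.104% in undifferentiated cells. Striated muscle miRNAs were near the detection limit, with 2 to 15 reads summed over the list in a B8 library and 24 to 33 in a deeper D3 library. In rescaled signal the sums overlapped, at 4.24 to 14.8 in B8 and 9.24 to 12.0 in D3. None of 4 tested was called by limma (0 at an unadjusted p under 0.05), edgeR or DESeq2. However, 1 was called higher without B8 replicate 1 or 2, and 1 was called lower without B8 replicate 3. Between 7 and 12 of 13 members were at 0 in a library.

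Of 22 tested neural miRNAs, 3 were higher and 1 lower, with a median of 0.49, where 20.2% of all tested were higher and 18.6% lower. With equal column totals none was higher, 1 was lower and the median was 0.04. miR-9-5p, which promotes neurogenesis, had 2543, 2291 and 2955 in B8 and 4854 and 4148 in D3. The libraries did not overlap, but the log2 difference of 0.80 ± 0.31 (SE) missed the threshold (adjusted p = 0.052). It passed in 7 of 18 alternatives, edgeR on the recovered reads among them (adjusted p = 0.0032, the lowest of a range up to 0.56). miR-218-5p, from introns of Slit2 and Slit3 and typical of motor neurons, had 25.5, 70.0 and 21.2 in B8 and 120.8 and 119.7 in D3 (1.83 ± 0.48, adjusted p = 0.0058; 0.11 with equal column totals, the highest of a range from 0.00029). miR-7a-5p, a neuroendocrine miRNA, was lower, with 186.3, 113.3 and 86.9 in B8 and 59.3 and 46.8 in D3 (-1.21 ± 0.27, adjusted p = 0.0017). The 3 higher calls became 1 without D3 replicate 2 or D3 replicate 3, and 5 without B8 replicate 1; without B8 replicate 2, 2 were lower. The neural sum was 3287 to 4042 in B8 and 5428 to 6254 in D3, with 10 to 15 of 34 members at 0 in B8 and 4 to 6 in D3. The D3 libraries were several times deeper, so these counts at 0 cannot be compared between the lines. By mean share outside miR-10a and miR-10b the list took 2.35% in B8 and 4.36% in D3, against 0.449% and 0.552% in undifferentiated cells.

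**Figure D5:**
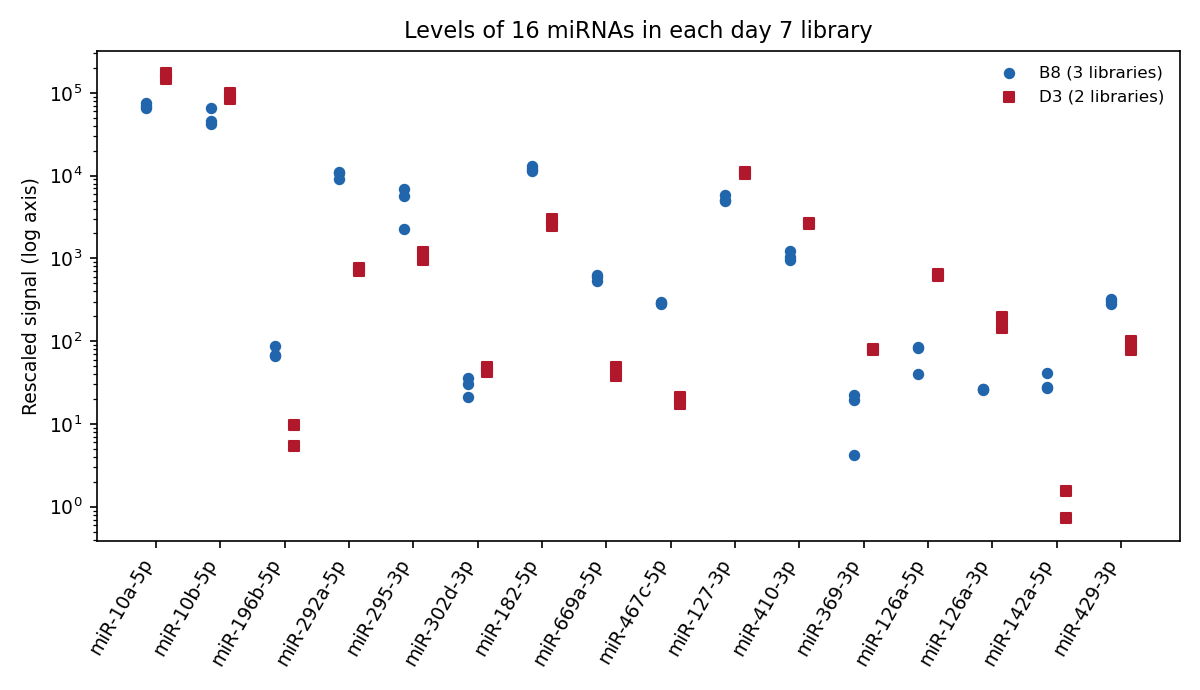
Rescaled signal (log axis) of 16 miRNAs in each day 7 library, B8 as blue circles (3 libraries) and D3 as red squares (2 libraries). The 16 were chosen with their values known, and the lines separate for all of them, where 54.1% of all 521 tested did not overlap. The gap is widest for miR-142a-5p, miR-292a-5p and miR-467c-5p, which are lower in D3, and for miR-126a-5p, which is higher.

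let-7 miRNAs, whose mature forms build up during differentiation, were called in few members on the rescaled scale. Of 15 tested strands, 2 were higher and 1 lower (median 0.13), against 20.2% and 18.6% of all tested. As deposited, 14 were higher, against 66% of all tested, and the 1 strand lower when rescaled was among them. With equal column totals none was higher, 4 were lower and the median was -0.33. The higher calls became 4 without B8 replicate 1 and 0 without D3 replicate 2, and the lower call was lost without B8 replicate 3, D3 replicate 2 or D3 replicate 3. The 9 tested strands with the GAGGUAG seed summed to 9523 to 10710 in B8 and to 8978 and 9137 in D3. let-7a-5p, the most abundant, differed by -0.26 ± 0.19 (SE, adjusted p = 0.28). let-7i-5p had 571.6, 548.7 and 440.9 in B8 and 1027 and 882.9 in D3 (0.88 ± 0.22, adjusted p = 0.004), a call lost without D3 replicate 2 (adjusted p = 0.053; range 0.0014 to 0.29). The miR-99 and miR-125 list, often co-transcribed with let-7, had 4 of 9 tested higher and none lower (median 0.55), but none with equal column totals. miR-125b-5p had 313.6, 240.4 and 254.4 in B8 and 564.1 and 524.2 in D3 (1.02 ± 0.28, adjusted p = 0.0069). Leaving out D3 replicate 2 ended this call too (adjusted p = 0.058; range 0.00053 to 0.26). The 4 calls of the list became 0 without D3 replicate 2, 1 without D3 replicate 3 and 2 without B8 replicate 2.

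Of miRNAs in no list, 19 were higher and 17 lower among 176 tested, both smaller shares than the 20.2% and 18.6% of all tested; the 4 most abundant called ones follow, chosen after their values were seen. miR-320-3p (-1.50 ± 0.23 SE, adjusted p = 5.5e-05) and miR-672-5p (-1.80 ± 0.22, adjusted p = 3.9e-06) were lower in D3. miR-340-5p (1.83 ± 0.34, adjusted p = 0.00032) and miR-872-5p (1.10 ± 0.20, adjusted p = 0.00032) were higher. These 4 calls held in each leave-one-out fit.

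Counts in the other lists are to be read against 20.2% of all tested higher and 18.6% lower. As deposited, the 1 lower strand of the miR-181 list and the 1 lower strand of the miR-30 list were called higher. miR-181 strands were higher for 3 and lower for 1 of 7 tested (median 0.10); the lower strand, miR-181c-5p, is described below. The miR-30 list had 4 higher and 1 lower of 11 (0.62), and none was called without D3 replicate 2. The miR-130 and miR-301 list had 3 higher of 8 (0.56), but 1 higher and 2 lower with equal column totals; miR-301a-3p differed by 0.77 ± 0.17 (SE, adjusted p = 0.0016; 0.28 with equal column totals, the highest of a range from 0.00021). The miR-34 and miR-449 list had 1 higher and 1 lower of 5 (0.71), and miR-34a-5p, a target of p53, was the lower one at -1.08 ± 0.20 (adjusted p = 0.00031). The higher call of that list was lost in each leave-one-out fit except the one without B8 replicate 2, which called 2. The miR-23, miR-24 and miR-27 list had 1 higher and 1 lower of 8 (0.02), both lost without D3 replicate 2. The miR-15 and miR-16 list had 2 higher of 8 (0.13), both lost without either D3 library and 1 lost without B8 replicate 2 or B8 replicate 3. With equal column totals it had none higher and 2 lower, the miR-181 list 1 higher and 2 lower, and the miR-30 list none higher and 1 lower.

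No strand was called among 8 of the miR-322 and miR-503 cluster (median 0.12), 3 of miR-29 (0.00) or 3 of miR-221 and miR-222 (0.22). By an unadjusted p under 0.05, limma gave 3, 0 and 0, edgeR's adjusted test called none, and DESeq2 called 1 of the first. Of the first, 1 was called higher without B8 replicate 1, 1 higher and 1 lower without B8 replicate 2, and 1 lower without B8 replicate 3. Of 5 at other imprinted loci (0.38), miR-335-5p of the Mest locus was higher (0.84 ± 0.21 SE, adjusted p = 0.0049) and miR-296-5p of the Gnas locus lower (-0.88 ± 0.23, adjusted p = 0.0049), the latter not without D3 replicate 2 (adjusted p = 0.092; range 0.00029 to 0.092). As deposited, all 5 were called higher, miR-296-5p among them, where 66% of all tested were. Rescaled, that list had 2 higher without B8 replicate 1 and 2 lower without B8 replicate 2. Of 6 widely expressed miRNAs (-0.21), 2 were lower, and 1 without either D3 library. Without B8 replicate 2, 1 was higher. Of the 2 lower, 1 was called higher as deposited. miR-191-5p was among the lower, with 4623, 3033 and 5846 in B8 and 1958 and 2031 in D3 (-1.12 ± 0.21, adjusted p = 0.00032). Among 4 entries that resemble fragments of other RNAs (-0.91), 2 were lower, miR-6539 by -2.19 ± 0.29 (adjusted p = 1e-05) and miR-6240 with a call that was lost without B8 replicate 3, D3 replicate 2 or D3 replicate 3 (adjusted p = 0.06, 0.13 and 0.072; range 0.0019 to 0.14).

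The ratio of 5p to 3p strands needs no library factor, so it was compared for the 21 hairpins, of 333 with both strands in the table, that had at least 20 reads of each strand in all 5 libraries. Of these, 1 (4.76%) differed between the lines. The 5p to 3p ratio of miR-181c was 3.72, 3.52 and 2.70 in B8 and 0.795 and 0.936 in D3. The 5p strand was the more abundant in every B8 library and the less abundant in both D3 libraries, a log2 difference of -1.93 ± 0.27 (SE, adjusted p = 0.0043). Rescaled, miR-181c-3p was higher in D3 by 1.48 ± 0.18 (adjusted p = 4.5e-06), and miR-181c-5p differed by -0.45 ± 0.15 (adjusted p = 0.027). As deposited, both strands were called higher in D3. The arm ratio was not called without D3 replicate 2 (-1.81, adjusted p = 0.072; range over its alternatives 8.1e-06 to 0.072). The 5p call on its own was lost without B8 replicate 1 (adjusted p = 0.053), D3 replicate 2 (0.14) or D3 replicate 3 (0.13; range 0.00048 to 0.48). miR-28a came next, at 1.11 ± 0.28, and missed the threshold (adjusted p = 0.066). The count of called hairpins was 6 without B8 replicate 1, 2 without B8 replicate 3 and 0 without D3 replicate 2 (1 at an unadjusted p under 0.05).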

How the data were processed

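Small RNA libraries of the day 7 embryoid bodies were read from a table of signal values that the authors deposited, namely miRNA read numbers divided by library factors; its title names TMM. Per the submitters' processing notes, CASAVA, FastQC, Bowtie, Partek and mm10 were used; cutadapt and a length step appear in the column titles, and versions and rules for reads matching several miRNAs are not given in the sources used here. Values standing for at most 1000 reads were all (100%) whole multiples of 1 unit per library, to within 0.01 read, which recovered whole reads; edgeR 4.0.16 on these reads called 210 miRNAs (123 higher, 87 lower).

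The 521 tested miRNAs averaged at least 0.0005% of the column total across 14 libraries. limma 3.58.1 (R 4.3.3) with a trended prior was fitted to log2(signal + 0.48) of all 5 groups (9 residual degrees of freedom), as deposited and after median-of-ratios rescaling within day 7; the threshold was a Benjamini-Hochberg adjusted p of 0.05. Scripts were tested on simulated data. Arm ratios used limma on the 5 libraries (at least 20 reads of each strand). Alternatives were other pseudocounts, filters, scalings and tools (edgeR, DESeq2 1.42.0), a replicate block and leaving out each library. Named miRNAs were the 8 largest differences each way called on both scales, up to 3 of each list, the 6 most abundant of each line, 6 arm pairs and 4 called oppositely between scales; others are marked. Members and lists were chosen with earlier results of these data known.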

Additional observations from a re-analysis of the deposited data

How the results depend on the processing

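Of 86 named miRNAs, 74 were called on the rescaled signal, and 30 kept the call in every alternative that tested them. Within each scale, no alternative turned the direction of a named call; between the scales, 12 miRNAs were called in opposite directions. Of the rescaled values of named miRNAs, 1328 stayed on their side of the threshold, 198 lost the call and 16 gained one.

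The 202 rescaled calls became 125 (55 higher, 70 lower) with the day 7 libraries fitted alone, and 126 to 229 when 1 library was left out. The 392 deposited calls became 261 with a filter at 0.005% in place of 0.0005% of the column total, where 293 miRNAs were tested, and 340 to 395 when 1 library was left out. The single arm-ratio call became 3 with at least 5 reads (51 hairpins), 0 with at least 100 reads (3 hairpins, none with an unadjusted p under 0.05), 3 with all groups sharing the spread, and 0 to 6 when 1 library was left out. The miR-10a and miR-10b gap of 21.4 points was 110 points as a percentage of the signal outside them and 19.5 to 23.2 when 1 library was left out.

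With the replicate number as a block there were 210 rescaled calls, 387 deposited calls and 6 arm-ratio calls. The lines share only numbers 2 and 3, whose deviations correlated by 0.030 and 0.022, so the numbers were not taken to pair the samples.

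D3 at day 7 had 2 libraries; leaving 1 out assumes that the other varies like the remaining groups. Depth limits miRNAs below about 3 reads, which stood for 2.96 to 6.36 rescaled units in B8 and 1.09 to 1.15 in D3.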
